A study of Mus musculus with 8 samples.

Results

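The genes followed here are 10 genes of serine, D-serine and glycine metabolism: Phgdh, Psat1 and Psph for serine synthesis, Srr and Dao for D-serine turnover, Slc7a10 and Slc1a4 for transport, Gldc and Gcsh for glycine cleavage, and Shmt1 for the exchange of serine and glycine. They were chosen by symbol and matched by gene identifier, and all 10 were found among the 55417 gene rows of each count table. The counts came from flow-sorted astrocytes of 4 wild-type (WT) mice at postnatal day 29, 2 females and 2 males. Each mouse gave 1 cortical and 1 subcortical sample, so the 4 groups, female cortical, female subcortical, male cortical and male subcortical, held 2 libraries each and each region 4. The labels name no treatment, transgene or reporter. The sources used here give neither the sorting gate nor the borders of the subcortical dissection. A tdTomato feature had 0 counts over the 8 libraries.

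Astrocytes are known as the main brain source of L-serine, which they make from a glycolytic intermediate in 3 steps and pass to neurons. Serine racemase turns L-serine into D-serine, which together with glycine is a co-agonist of NMDA-type glutamate receptors, and D-amino acid oxidase degrades D-serine in a peroxisomal reaction. Glycine is taken back up by astrocytes through the transporter GlyT1 and is broken down in mitochondria by the glycine cleavage system, which hands a carbon unit to folate.

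Levels are given in CPM, the count of a gene relative to the size of its library, after library sizes had been adjusted by the TMM method, which trims genes of extreme ratio. The libraries count the 3′ ends of transcripts, and levels are compared between samples of 1 gene, not between genes. Gene counts ran from 3.54 to 4.06 M per cortical library and from 2.48 to 3.83 M per subcortical library, so that 1 count was worth 0.234 to 0.261 CPM in the cortical and 0.279 to 0.481 CPM in the subcortical libraries. Of 10 astrocyte markers all had counts, and their summed level was 25104 to 27272 CPM in the cortical and 16614 to 18505 CPM in the subcortical libraries, with 3 of 10 higher and 1 lower. The sum is carried by the glutamate transporter genes Slc1a2 and Slc1a3, which were higher, whereas the water channel gene Aqp4 was lower in cortical libraries (log2 fold change -1.12, edgeR adjusted p = 0.000228). Markers of other cells were present at lower levels and some differed by region. Oligodendrocyte markers summed to 796 to 1301 CPM in the cortical and 2156 to 5449 CPM in the subcortical libraries, with 6 of 8 lower in cortical libraries, and microglial markers summed to 128 to 298 CPM and 52.4 to 107 CPM, with 3 of 6 tested higher. Neuronal markers summed to 97.2 to 173 CPM and 72.7 to 123 CPM, with 1 of 8 tested higher (Slc17a7, log2 fold change 3.77) and 1 lower (Nefl, -1.71). Of 4 ependymal markers 1 was lower (Foxj1, -1.45). Mural cell markers summed to 400 to 864 CPM in the cortical and 251 to 985 CPM in the subcortical libraries, with 0 of 4 called. The part of these other cells in the results below was not tested.

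The first comparison asked how the 10 genes differed between cortical and subcortical astrocytes. Gldc, the glycine decarboxylase gene of the cleavage system, was 7.26-fold higher in cortical cells and Psat1, the second enzyme of serine synthesis, 1.87-fold higher. Dao, the D-amino acid oxidase gene, was 35.4-fold lower, and Slc7a10, which encodes a transporter of small neutral amino acids that include D-serine and glycine, was 1.59-fold lower. These 4 genes, 2 higher and 2 lower, passed an adjusted p of 0.05 in edgeR's quasi-likelihood test with Benjamini-Hochberg adjustment over all genes. Of the other members, 5 were tested and not called, and Shmt1 had too few counts to be tested. Over all 11781 tested genes 6.81% were called, 3.42% higher and 3.39% lower in cortical libraries. The libraries of the regions did not overlap for 5 of the 9 tested members (Psat1, Psph, Dao, Slc7a10 and Gldc), against 12.2% of all tested genes. Of the 9, 6 moved the same way in all 4 mice, against 26.4%. The members were chosen with earlier results of these data known, so these shares are a description only. With the mouse as a block, which pairs both regions of an animal, the 4 genes remained called, and 7.51% of all genes were. In bulk RNA, fewer cells of a type and less RNA per cell cannot be told apart.

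**Figure D1:**
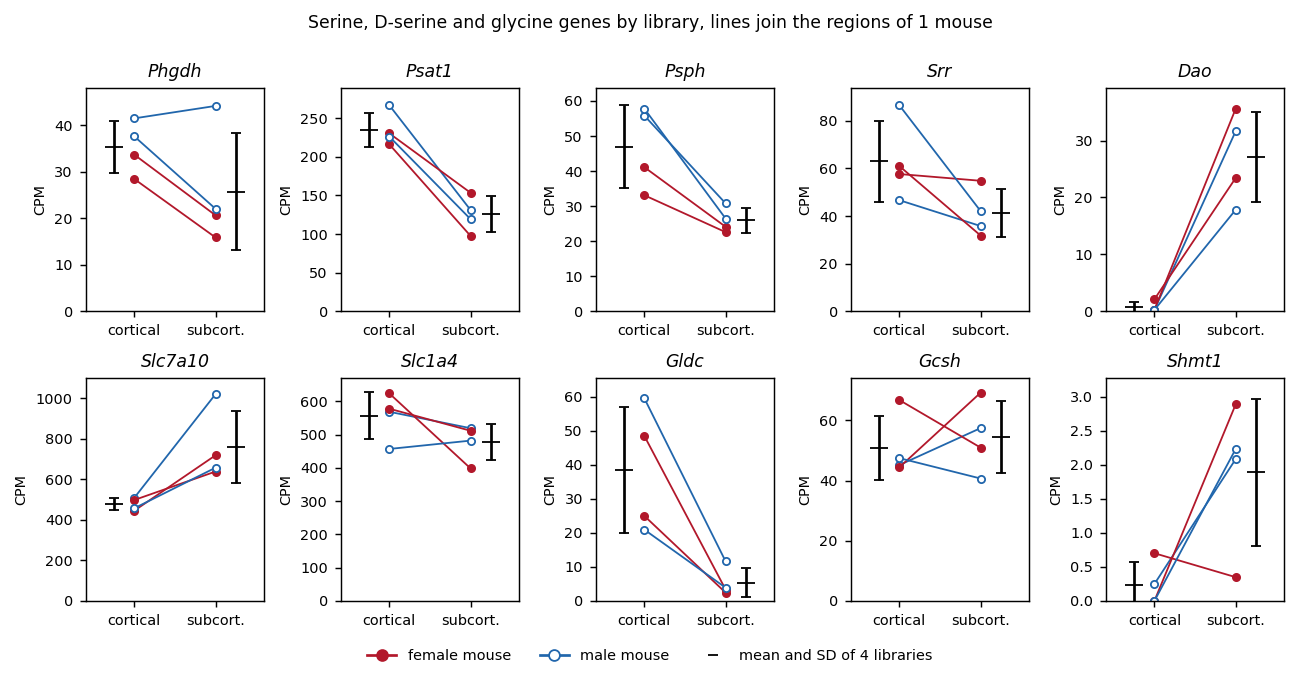
Level of each of the 10 genes (CPM, linear axis from 0) in the 4 cortical and 4 subcortical libraries, with lines joining both regions of a mouse, filled red points for females, open blue points for males, and a black bar for the mean ± SD of 4 libraries. Dao rose from at most 2.10 CPM in cortical to at least 17.8 CPM in the subcortical libraries, while Gldc fell from at least 20.95 CPM to at most 11.7 CPM along every line.

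The promoters of the 4 called members are shown because they moved in opposite directions. Each window is the 250 bases upstream of the most upstream RefSeq start of the gene (build GRCm38.p6), printed 5′ to 3′ on the gene's strand, with matches to the CCAAT box in capitals (CCAAT, or ATTGG where the match is on the other strand). Psat1 lies at chr19:15925060-15925309 on the minus strand, Gldc at chr19:30175442-30175691 on the minus strand, Dao at chr5:114003485-114003734 on the plus strand and Slc7a10 at chr7:35186135-35186384 on the plus strand.
Psat1: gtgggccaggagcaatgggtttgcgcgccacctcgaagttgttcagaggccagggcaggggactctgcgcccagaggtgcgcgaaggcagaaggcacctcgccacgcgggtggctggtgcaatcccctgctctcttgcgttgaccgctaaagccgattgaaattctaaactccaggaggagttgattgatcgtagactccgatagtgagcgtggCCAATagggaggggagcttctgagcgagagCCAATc
Gldc: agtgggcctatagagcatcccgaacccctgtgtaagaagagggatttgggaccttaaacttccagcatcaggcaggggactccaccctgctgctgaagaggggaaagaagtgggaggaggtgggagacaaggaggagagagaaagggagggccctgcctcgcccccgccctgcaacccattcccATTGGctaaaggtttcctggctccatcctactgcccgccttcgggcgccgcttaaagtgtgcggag
Dao: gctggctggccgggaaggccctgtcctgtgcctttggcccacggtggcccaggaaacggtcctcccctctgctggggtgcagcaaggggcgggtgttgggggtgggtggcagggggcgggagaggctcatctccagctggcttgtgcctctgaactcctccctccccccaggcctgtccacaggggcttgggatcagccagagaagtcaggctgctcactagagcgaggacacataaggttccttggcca
Slc7a10: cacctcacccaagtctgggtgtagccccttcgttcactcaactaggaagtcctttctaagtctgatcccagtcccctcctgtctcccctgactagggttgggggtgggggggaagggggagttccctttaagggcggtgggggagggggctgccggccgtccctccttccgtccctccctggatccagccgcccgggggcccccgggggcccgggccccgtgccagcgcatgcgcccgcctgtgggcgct
The CCAAT box matched 2 times in the Psat1 window and 1 time in the Gldc window, and its letters were not in these Dao and Slc7a10 windows. The choice of start matters to this count, as RefSeq gave 3 starts for Dao and 2 for Psat1. The window of the most downstream Dao start (chr5:114004558-114004807) held 1 CCAAT match and 1 CACGTG match. The bases just after this start were not found near the beginning of a GENCODE transcript of Dao, unlike those of the other Dao and Psat1 starts. The window of the other Psat1 start (chr19:15924623-15924872) held 0 CCAAT matches. Phgdh and Psph, the other genes of serine synthesis, each had 2 matches. Gcsh and Slc1a4 also had 2 each, Shmt1 had 1 and Srr had 0. On both strands, 7 of the 10 members had a match in the window of their most upstream start. Of all 32851 windows of this length 33.8% had a match. That set also includes alternative starts of a gene, so the shares are not like for like, and enrichment was not tested. The other motifs searched on both strands, were TGATGNAAT (an element of the ATF4 type, in 0.816% of all windows), CACGTG (an E-box, 6.02%) and TAATTA (a homeobox core, 4.84%), and none of the 10 most upstream member windows held their letters, so no matches of different motifs overlapped there. GC content was 59.6% in the Psat1 and Gldc windows, 66.4% in that of Dao and 69.6% in that of Slc7a10, with a median of 52.4% over all windows.

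The 3 enzymes of serine synthesis act in sequence. Phosphoglycerate dehydrogenase, the product of Phgdh, takes the first step. Phgdh stood at 41.4, 28.4, 33.6 and 37.6 CPM in the cortical libraries of mice 1 to 4 and at 44.1, 15.9, 20.6 and 22.0 CPM in their subcortical libraries. The regions overlapped, since the subcortical library of mouse 1 was the highest of the 8, and in the other 3 mice the cortical library was higher. Phgdh had a log2 fold change of 0.46 (SE 0.31, 95% interval -0.18 to 1.10, edgeR adjusted p = 0.509).

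Psat1, the phosphoserine aminotransferase gene, followed with 267, 216, 230 and 226 CPM in the cortical and 131, 97.6, 153 and 119 CPM in the subcortical libraries of mice 1 to 4. Every cortical library was above every subcortical one. The means were 235 ± 22.1 and 125 ± 23.3 CPM (SD, n = 4), and the log2 fold change was 0.90 (SE 0.17, edgeR adjusted p = 0.00158). The call was kept without any single library, with adjusted p between 0.00114 and 0.0109.

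Psph, whose product removes the phosphate in the last step, stood at 55.8, 33.1, 41.1 and 57.8 CPM in the cortical and 30.8, 22.6, 24.1 and 26.5 CPM in the subcortical libraries of mice 1 to 4. The regions did not overlap, and the cortical library was higher in all 4 mice. The fold change, 0.85 on the log2 scale (SE 0.26, 95% interval 0.31 to 1.40), was close to that of Psat1, but edgeR did not call it (adjusted p = 0.0539) and DESeq2 did (adjusted p = 0.029). In edgeR, Psph also passed without cortical 2 (adjusted p = 0.0326) and with sex as a covariate (0.047). Upper quartile normalization (0.0485) and a filter of 5 CPM in 4 libraries (0.049) gave a call too. It stayed uncalled in 13 other settings. Among these were the fit that pairs both regions of an animal (0.051), the contrast of females (0.532) and that of males (0.222). Leaving out any library other than cortical 2 did not give a call either (0.0674 to 0.164). An overlapping transcript of Cct6a on the opposite strand had a log2 fold change of 0.02.

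D-serine is made by serine racemase, the product of Srr, and removed by D-amino acid oxidase, the product of Dao. Srr stood at 46.6, 57.6, 61.0 and 86.5 CPM in the cortical and 35.8, 54.8, 31.8 and 42.1 CPM in the subcortical libraries of mice 1 to 4. The cortical library was higher in all 4 mice, by a log2 difference of only 0.07 in mouse 2, and the regions overlapped. Srr had a log2 fold change of 0.62 (SE 0.25, 95% interval 0.10 to 1.13, edgeR adjusted p = 0.175). Its exons overlap Tsr1 and Smg6 on the opposite strand, which had log2 fold changes of -0.30 and 0.11, and the sources used here do not say whether counting used strand.

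Dao was near the limit of detection in cortical libraries. It had 1, 1, 9 and 1 counts there in mice 1 to 4 (0.248, 0.261, 2.10 and 0.241 CPM), and 76, 74, 67 and 64 counts in the subcortical libraries (31.6, 35.6, 23.4 and 17.8 CPM). All subcortical libraries were far above all cortical ones, and 9 of the 12 cortical counts came from the female library cortical 3. Dao thus had a log2 fold change of -5.14 (SE 0.61, 95% interval -6.41 to -3.88, edgeR adjusted p = 5.35e-06), and without cortical 3 it was -6.55. From pooled counts scaled for library size, the level was 34.9 times as high in subcortical libraries (95% exact binomial interval 19.7 to 68.4, counting error only). Without single libraries the adjusted p stayed between 8.62e-07 and 6.85e-05.

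Since Dao is known from astrocytes of the cerebellum and brainstem, genes of these regions are given beside it. Of 15 hindbrain position genes 13 had 0 counts in all libraries, among them all Hox genes listed, and the list summed to 0 to 4.69 CPM in the cortical and 3.49 to 13.7 CPM in the subcortical libraries. The counts came from En1, a midbrain and hindbrain homeobox gene, at a mean of 1.17 against 4.94 CPM, and its relative En2, at 0 against 3.26 CPM. Of 9 cerebellar markers, Gabra6 of granule cells and Pcp2 of Purkinje cells had 0 counts. Gdf10, a marker of Bergmann glia, stood at a mean of 60.7 against 65.0 CPM (log2 fold change -0.09, edgeR adjusted p = 0.936). Its subcortical libraries were uneven, with 51.6, 130, 32.5 and 46.0 CPM in mice 1 to 4, against 55.2 to 65.2 CPM in the cortical libraries. Oligodendrocyte markers, in the ranges given above, also moved with Dao, with 6 of 8 lower in cortical libraries. Of 4 ependymal markers 1 was lower, Foxj1 (12.2 against 33.5 CPM). Ccdc153, Tmem212 and Dynlrb2 were not called (log2 fold changes -0.09, 0.26 and -0.27). The part of these cells in the Dao difference was not tested.

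Both transporters of the group carry small neutral amino acids. Slc7a10, which encodes Asc-1, an exchanger of glycine, L-serine and D-serine, stood at 508, 497, 445 and 457 CPM in the cortical and 1019, 638, 718 and 657 CPM in the subcortical libraries of mice 1 to 4. Every subcortical library was above every cortical one, and the subcortical library of mouse 1 was the highest. The means were 477 ± 30.8 and 758 ± 177 CPM (SD, n = 4), with a log2 fold change of -0.67 (SE 0.17, 95% interval -1.02 to -0.32, edgeR adjusted p = 0.015). The call was lost without cortical 3 (adjusted p = 0.0612) and without subcortical 1 (0.0867). Lrp3, which overlaps Slc7a10 on the opposite strand, had a log2 fold change of 1.00 (edgeR adjusted p = 0.409).

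Slc1a4 encodes ASCT1, a sodium-dependent exchanger of alanine, serine, cysteine and threonine. It stood at 569, 624, 578 and 457 CPM in the cortical and 519, 398, 512 and 482 CPM in the subcortical libraries of mice 1 to 4. The regions overlapped, and the cortical library was lower in mouse 4 and higher in the other 3 mice. Slc1a4 had a log2 fold change of 0.22 (SE 0.16, 95% interval -0.11 to 0.55, edgeR adjusted p = 0.548).

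Gldc encodes the P protein, the decarboxylase that opens glycine cleavage. It stood at 59.5, 48.5, 25.0 and 20.95 CPM in the cortical and 11.7, 3.36, 2.45 and 3.90 CPM in the subcortical libraries of mice 1 to 4. The regions did not overlap, although cortical libraries spread widely, with mice 1 and 2 above mice 3 and 4. The means were 38.5 ± 18.6 and 5.34 ± 4.25 CPM (SD, n = 4). The log2 fold change was 2.86 (SE 0.46, 95% interval 1.90 to 3.82, edgeR adjusted p = 0.000253). Without single libraries it ran from 2.56, without cortical 1, to 3.55, without subcortical 1 (edgeR adjusted p at most 0.00368). Cortical 1 held 240 counts, the most of the cortical libraries. Subcortical 1 held 28 counts, against 7, 7 and 14 in the other subcortical libraries. Within single mice the log2 difference ran from 2.29 to 3.66.

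Gcsh encodes the H protein, the lipoate-bearing carrier that moves the intermediate between the enzymes of the system. It stood at 45.2, 66.7, 44.4 and 47.4 CPM in the cortical and 57.4, 50.9, 69.2 and 40.7 CPM in the subcortical libraries of mice 1 to 4. The regions overlapped and the cortical library was higher in 2 mice and lower in 2. The log2 fold change of -0.10 (SE 0.24, 95% interval -0.59 to 0.39, edgeR adjusted p = 0.898) changed sign without subcortical 3. The interval of Gcsh lay below that of Gldc, but the difference between the 2 genes was not tested.

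The remaining proteins of the system are the T protein, encoded by Amt, and the L protein, encoded by Dld, which also serves other dehydrogenases. Amt stood at 32.8 ± 4.28 CPM in the cortical and 39.7 ± 10.7 CPM in the subcortical libraries (SD, n = 4, log2 fold change -0.27, SE 0.26, edgeR adjusted p = 0.682). Dld stood at 55.5 ± 3.53 and 78.4 ± 18.7 CPM (SD, n = 4, log2 fold change -0.49, SE 0.21, edgeR adjusted p = 0.209) with the cortical library below the subcortical one in all 4 mice. Of the 4 genes of the cleavage system only Gldc was called, beside 6.81% of all tested genes.

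Shmt1 encodes the cytosolic hydroxymethyltransferase that converts serine to glycine. It had 1, 0, 3 and 0 counts in cortical and 5, 6, 1 and 8 counts in subcortical libraries of mice 1 to 4, which overlapped. A count of 0 allows up to 0.782 CPM in cortical 2 and 0.723 CPM in cortical 4. Without a low-count filter edgeR gave a log2 fold change of -2.79 (SE 2.03, adjusted p = 0.518). Smcr8, which overlaps it on the opposite strand, had a log2 fold change of -0.36. Shmt2, the mitochondrial enzyme, stood at 15.2 ± 2.70 CPM in the cortical and 9.90 ± 4.69 CPM in the subcortical libraries (SD, n = 4, log2 fold change 0.61, SE 0.43, edgeR adjusted p = 0.542).

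**Figure D2:**
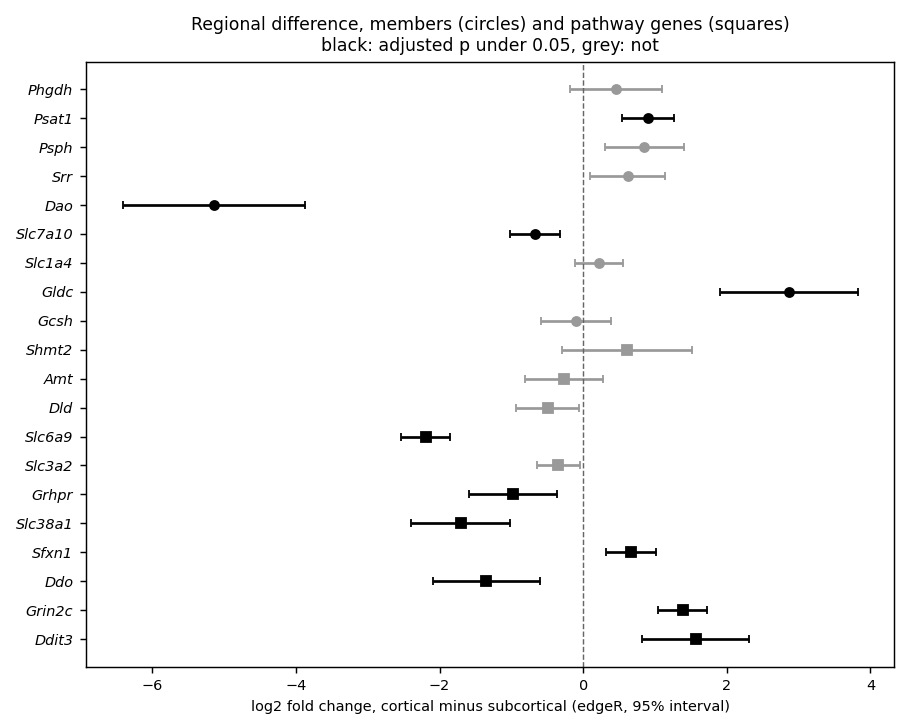
Log2 fold change of cortical against subcortical libraries (edgeR, x axis) with its 95% interval for the 9 tested members (circles) and 11 pathway genes (squares), black where the adjusted p was under 0.05. Dao at -5.14 and Gldc at 2.86 stand at the ends of the range.

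Genes around the group were read from 6 pathway lists of 83 genes, of which 54 were tested. In cortical cells 3 of these were higher, 4 were lower and 47 were not called, beside 3.42% higher and 3.39% lower over all tested genes. No count was found for 12 of the 83. The transport list had 1 of 12 tested genes higher and 2 lower (median log2 fold change -0.04, against -0.01 over all tested genes). The list of glycine cleavage partners and the folate cycle had 0 of 13 called (median -0.27) and that of serine and glycine use had 1 of 13 lower (median 0.12). D-amino acid turnover had 1 of 4 lower (median -0.55) and NMDA and glycine receptor subunits 1 of 5 higher (median 0.34). The list named regulators of serine synthesis, which also holds stress response genes, had 1 of 7 higher (median 0.02). That gene was Ddit3. The 7 called genes are described next.

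Slc6a9 encodes GlyT1, the glycine transporter of astrocytes. It stood at 220 CPM, 238 CPM, 254 CPM and 216 CPM in the cortical and at 1215, 864, 1144 and 1022 CPM in the subcortical libraries of mice 1 to 4. A wide gap separated the regions in every mouse. The difference was -2.19 on the log2 scale (SE 0.16, edgeR adjusted p = 4.64e-09), the smallest adjusted p among the members and called pathway genes. Slc6a9 exons overlap B4galt2, Ccdc24 and Gm17114 on the opposite strand, of which B4galt2 was tested (log2 fold change 0.35, edgeR adjusted p = 0.814).

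Slc38a1 encodes a sodium-coupled transporter of neutral amino acids, mainly glutamine. It stood at 18.4, 17.7, 25.5 and 13.5 CPM in the cortical and 62.0, 106, 27.3 and 51.8 CPM in the subcortical libraries of mice 1 to 4. The regions did not overlap, but mouse 3 had nearly the same level in both. Slc38a1 differed by -1.71 on the log2 scale (SE 0.33, edgeR adjusted p = 0.00186).

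Sfxn1 encodes sideroflexin 1, which carries serine into mitochondria. It stood at 299, 344, 320 and 304 CPM in the cortical and 152, 226, 216 and 203 CPM in the subcortical libraries of mice 1 to 4. The regions did not overlap. For Sfxn1 the log2 fold change was 0.67 (SE 0.17, edgeR adjusted p = 0.0136), and the call was lost without cortical 2 (adjusted p = 0.0508) or subcortical 1 (0.0614).

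Ddo encodes D-aspartate oxidase, a peroxisomal relative of the Dao enzyme that acts on acidic D-amino acids. It stood at 36.0, 30.2, 13.3 and 15.2 CPM in the cortical and 36.6, 105, 37.0 and 63.0 CPM in the subcortical libraries of mice 1 to 4. The regions met closely in mouse 1, with no overlap. The log2 fold change was -1.35 (SE 0.36, edgeR adjusted p = 0.0208), with 4 of 4 mice lower in the cortex. The call was lost without cortical 3 (adjusted p = 0.0919), cortical 4 (0.0589) or subcortical 2 (0.147). Without subcortical 2 the log2 fold change was -0.95.

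Grin2c, an NMDA receptor subunit gene, stood at 572, 495, 593 and 482 CPM in the cortical and 207, 209, 235 and 167 CPM in the subcortical libraries of mice 1 to 4. The regions did not overlap, and the log2 fold change was 1.39 (SE 0.16, edgeR adjusted p = 5.18e-06). The obligate subunit gene Grin1 was low, at a mean of 6.73 ± 6.54 CPM in the cortical and 0.889 ± 1.29 CPM in the subcortical libraries (SD, n = 4, edgeR adjusted p = 0.182).

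Ddit3 encodes CHOP, a transcription factor of the stress response that ATF4 also serves. It stood at 28.5, 26.6, 19.4 and 36.1 CPM in the cortical and 7.91, 8.65, 14.3 and 6.41 CPM in the subcortical libraries of mice 1 to 4. The regions did not overlap (log2 fold change 1.57, SE 0.36, edgeR adjusted p = 0.00738). Ddit3 was called in the contrast of males (2.18, edgeR adjusted p = 0.0223) and not in that of females (0.99, 0.48). Atf4, a known activator of serine synthesis genes, stood at 155 ± 40.6 and 153 ± 33.5 CPM (SD, n = 4, log2 fold change 0.02, SE 0.21, edgeR adjusted p = 0.980).

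Grhpr encodes a reductase of glyoxylate and hydroxypyruvate. It stood at 17.1, 23.7, 18.9 and 14.2 CPM in the cortical and 45.8, 22.6, 38.4 and 38.4 CPM in the subcortical libraries of mice 1 to 4. The regions overlapped, because mouse 2 had about the same level in both. For Grhpr the log2 fold change was -0.98 (SE 0.29, edgeR adjusted p = 0.0487), and the call was lost once the mouse entered as a block (adjusted p = 0.0739), with sex as a covariate (0.0585), with upper quartile normalization (0.0533) and without any of the libraries cortical 1, 3 and 4 and subcortical 1, 3 and 4 (0.104 to 0.181).

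Slc3a2, whose product is the heavy chain partner of Asc-1 and of other exchangers, stood at 992 ± 42.8 CPM in the cortical and 1262 ± 120 CPM in the subcortical libraries (SD, n = 4). All 4 mice had less in the cortex and the regions did not overlap, as for its partner gene Slc7a10. At a log2 fold change of -0.35 (SE 0.14, 95% interval -0.65 to -0.05) it was not called by edgeR (adjusted p = 0.189) and was called by DESeq2 (adjusted p = 0.0484).

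**Figure D3:**
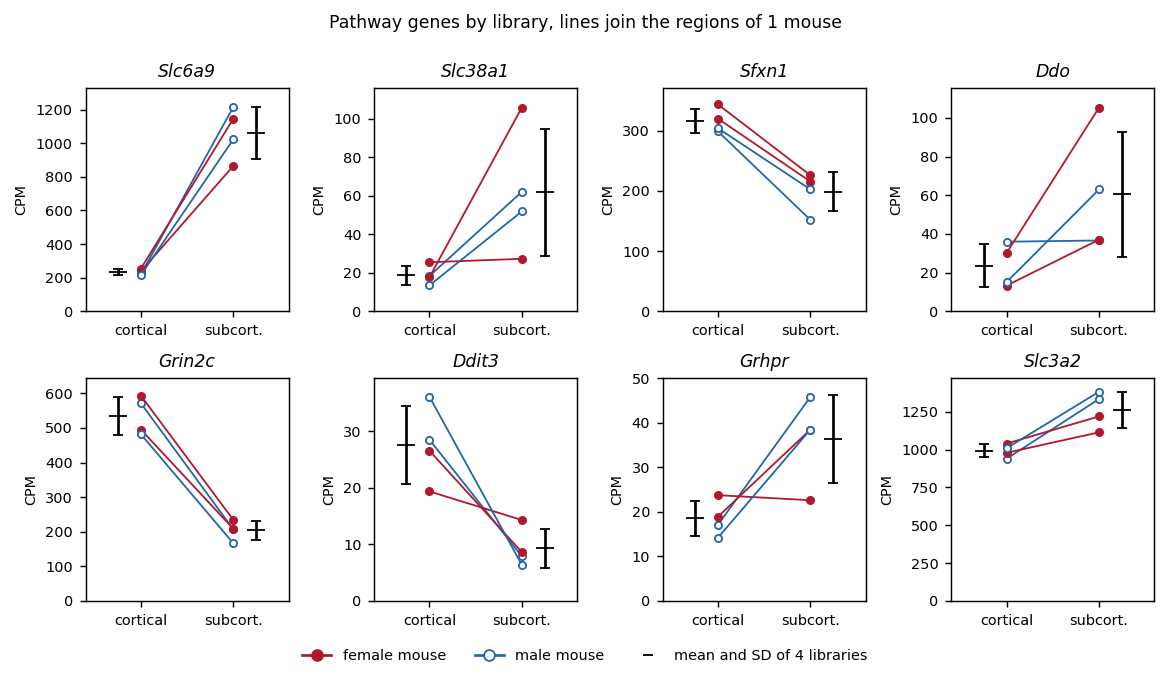
Level (CPM, linear axis from 0) of the 7 called pathway genes and of Slc3a2 in each library, with lines joining both regions of a mouse, filled red points for females, open blue points for males and a black bar for the mean ± SD of 4 libraries. Slc6a9 lay at 216 to 254 CPM in all cortical libraries and at 864 to 1215 CPM in all subcortical ones.

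The title of the series names female mice, and the libraries came from both sexes, so the members were also compared by sex. On counts summed per mouse (2 females, 2 males), 0 of 9 tested members were called by edgeR and 0 by DESeq2, and 0 had an unadjusted p under 0.05 with either tool. Over all 13402 tested genes 5 were called (0.0373%), and 3.73% had an unadjusted p under 0.05. The largest fold among the 9 was that of Psph, whose mean was 37.1 CPM in female and 56.8 CPM in male cortical libraries and 23.3 CPM in female and 28.6 CPM in male subcortical libraries. Its log2 fold change of female against male was -0.49 (SE 0.26, 95% interval -1.05 to 0.08, edgeR adjusted p = 0.999). For Phgdh it was -0.46 (SE 0.29, 95% interval -1.09 to 0.16), and for Psat1 -0.06 (SE 0.19, 95% interval -0.48 to 0.35). With 2 mice per sex, changes within these intervals could not be told from the spread between mice.

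The regional difference had the same sign in females and males for all 9 tested members. The share of all tested genes for which this holds was not computed. For Gcsh both values were near 0 (-0.11 and -0.08, SE 0.35 each), and the mice of each sex went opposite ways. For Slc1a4 the value in males was 0.03 (SE 0.23). Dao had a log2 fold change of -4.56 (SE 0.78) in females and -6.46 (SE 0.94) in males, and Gldc one of 3.67 (SE 0.67) and 2.41 (SE 0.60). The contrast of each sex came from a fit of the libraries of both sexes, with no term for the mouse. Neither sex was thus analysed on its own. Dao and Gldc were called in both contrasts with edgeR. The adjusted p was 0.00118 in females and 0.000147 in males for Dao, and 0.00243 and 0.0299 for Gldc. Of 13334 tested genes, 300 were called in the contrast of females and 312 in that of males. Psat1 and Slc7a10 were called in neither contrast. In females and males the log2 fold changes were 0.83 and 0.98 for Psat1 and -0.52 and -0.80 for Slc7a10. The test of the difference between the sexes (the interaction) called 0 of 9 members with edgeR and 0 with DESeq2, and 0 had an unadjusted p under 0.05. Over all 13334 tested genes 0% were called, and 3.76% had an unadjusted p under 0.05. For Dao the difference between the sexes was 1.90 on the log2 scale (SE 1.24, 95% interval -0.68 to 4.48) and for Gldc 1.26 (SE 0.88, 95% interval -0.57 to 3.09). The female cortical libraries held 10 of the 12 cortical Dao counts, 9 of them in 1 library.

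**Figure D4:**
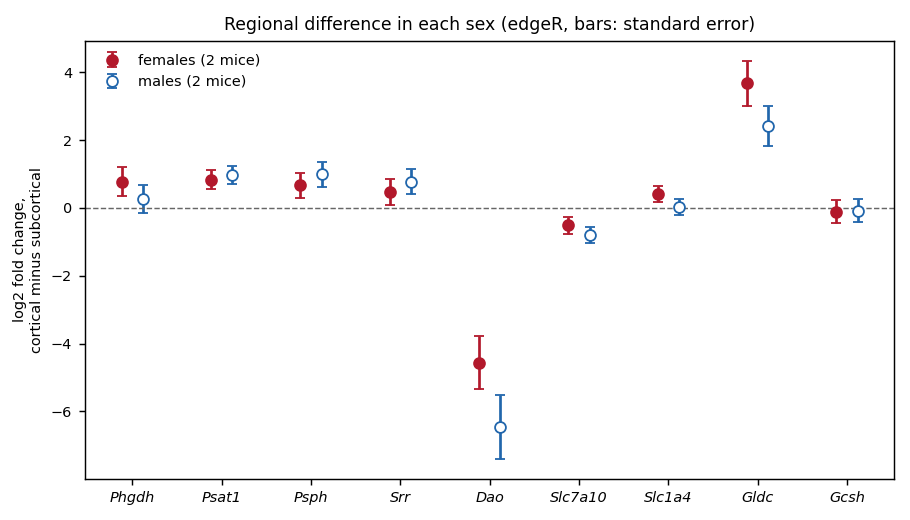
Regional log2 fold change (cortical minus subcortical, edgeR) of the 9 tested members in 2 females (filled red) and 2 males (open blue), with bars for the standard error. Both sexes lie on the same side of 0 for each gene, although near 0 for Gcsh, with Dao at -4.56 and -6.46 and Gldc at 3.67 and 2.41.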

How the data were processed

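RNA of 8 samples was read by 3′ mRNA sequencing (QuantSeq forward kit, per the labels' protocols). The submitters' processing notes name STAR 2.6.0, HTSeq 0.9.0 and build GRCm39, without settings. The deposited values are whole-number counts, 1 table per sample, and no scaling was applied before the tests. The 5 HTSeq summary rows stayed out. Reads with no feature were 30.2 to 40.7% of the reads given to a gene, to no feature or to an ambiguous feature. A table of normalized values, whose 8 sample columns match names of the count tables but no sample label, was not used here. Symbols matched 52083 of 55417 rows.

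Region was tested with edgeR 4.0.16 (R 4.3.3): filterByExpr (10 counts scaled for size in 4 libraries, 15 in total), TMM, quasi-likelihood, Benjamini-Hochberg over all tested genes at 0.05, cortical minus subcortical. Sex was tested on counts summed per mouse. The interaction and the regional contrast of each sex came from a fit with 4 means, 1 per sex and region. This fit had no mouse term. Within-mouse log2 differences used a pseudocount of 0.5 CPM. DESeq2 1.42.0 was an alternative. The region test was tested on simulated data. The floor for a count of 0 was 3 counts per library, which covers counting error only.

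The mouse numbers pair the samples, since both regions came from the same animal. After the mean of each region had been removed, r over genes was 0.0195 to 0.0592 for samples of 1 mouse and -0.0841 to 0.0471 for samples of different mice. No pair of libraries of a region agreed within sampling noise (chi-square over its degrees of freedom 11.7 to 23.7).

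The members, the pathway lists and the marker lists were chosen with earlier results of these data known. Named genes are the 10 members, Shmt2, Amt, Dld, Slc6a9, Slc3a2 and every called gene of the pathway lists. Other genes named beside them (markers, overlapping genes, Grin1, Atf4) were picked as context. Overlapping genes came from GENCODE M21 by name, and promoter windows from RefSeq on GRCm38.p6, another build than that of the counts.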

Additional observations from a re-analysis of the deposited data

Results flagged for a closer look

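In groups of 4 libraries, 1 library stood far from the other 3 in 4 of 42 gene and region groups checked; chance alone gives about 1 in 20. Dao stood at 2.10 CPM in cortical 3, against 0.241 to 0.261 CPM in the other cortical libraries. Gldc stood at 11.7 CPM in subcortical 1, against 2.45 to 3.90 CPM in the others. Gcsh stood at 66.7 CPM in cortical 2, against 44.4 to 47.4 CPM. Dld stood at 106 CPM in subcortical 2, against 67.1 to 72.0 CPM.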

How the results depend on the processing

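The 802 region calls (403 higher, 399 lower) were 477 at an adjusted p of 0.01 and 614 to 775 without single libraries. In the contrast of females 300 of 13334 tested genes were called, and in that of males 312. The 4 member calls were 2 in the contrast of each sex and 3 to 5 without single libraries. Other normalizations, DESeq2 (1029 calls), other filters and the sex covariate gave 4 or 5 member calls, and with the mouse as a replicate block, the paired analysis, 4 members and 885 genes were called. The block ended the call of Grhpr and changed no other call of a named gene in the region test. Grhpr also lost its call with upper quartile normalization (adjusted p = 0.0533) and with the sex covariate (0.0585). The log2 fold change of Gcsh, -0.10 with all libraries, ran from -0.25 to 0.039 without single libraries, the only change of direction. Normalizations moved the median of all genes by less than 0.1.

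The 5 sex calls were 15 without the low-count filter and 12 to 30 without single mice, where a sex with 1 mouse is assumed to vary like the other. The 0 interaction calls (502 genes at an unadjusted p under 0.05) were 1 without the filter, 1 with the replicate block and 1 to 2 without single libraries. In none of these sex and interaction settings was a member called. The cause of these changes was not tested. With 1 to 9 Dao counts per cortical library, its fold is set by few counts.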
